A study of Homo sapiens with 4 samples.

Results

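Small RNAs of the microRNA class are cut from longer transcripts in steps that run from the nucleus to the cytoplasm, and the genes that encode this machinery are described here by where their own transcripts were found in HEK293T cells. The 10 genes were DROSHA, DGCR8, XPO5, DICER1, TARBP2, AGO1, AGO2, AGO3, AGO4 and TNRC6A. They were chosen by symbol and not by a measured value, though earlier results of these data were known. All 10 were found among the 51740 gene rows of the deposited table, and all 10 were among its 23333 tested genes.

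The cells were wildtype HEK293T, an established human embryonic kidney line with the SV40 large T antigen, and were crosslinked with formaldehyde in every sample. The study separated a nuclear and a cytoplasmic fraction and sequenced the RNA of each in 2 biological replicates, 4 libraries in all, to ask where transcripts reside. Each library was prepared from 400 ng of ribodepleted RNA with a stranded kit and read from both ends for 100 nt. Because equal masses were used, each value is a share of the RNA of its fraction. Less RNA of a gene per cell and more RNA of other genes in that fraction cannot be told apart. Reads of exons and introns were counted together, so spliced and unspliced transcripts of a gene cannot be told apart either.

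As background, the Microprocessor, a complex of the RNase III enzyme DROSHA and the RNA-binding protein DGCR8, cuts a hairpin out of a primary transcript in the nucleus. Exportin-5, encoded by XPO5, carries the hairpin to the cytoplasm, where the RNase III enzyme DICER1 and its partner TARBP2 cut it to a short duplex. An Argonaute protein, AGO1 to AGO4, keeps one strand as the guide, and GW182 proteins such as TNRC6A link Argonaute to the enzymes that shorten poly(A) tails. These are the sites where the proteins work, and the measurements here are of the transcripts that encode them.

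Hairpins of this class also lie inside the genes themselves. By RefSeq on GRCh38.p14, DGCR8 holds a pair of microRNA genes in its exon 2 and DICER1 another in an intron, all on the strand of the host gene. They are shown because reads of a hairpin and of its host transcript cannot be told apart, and because the authors removed stretches shared by genes before counting. MIR3618 lies in the 5′ UTR of DGCR8, and its mature product is at chr22:20085797-20085818. MIR1306 lies in the coding sequence of the same exon, with its products at chr22:20086072-20086093 and chr22:20086112-20086129. MIR3173 lies in DICER1, with its products at chr14:95137923-95137944 and chr14:95137961-95137982. The mature sequences are given 5′ to 3′ with the seed, bases 2 to 8, in capitals.
hsa-miR-3618: uGUCUACAuuaaugaaaagagc
hsa-miR-1306-5p: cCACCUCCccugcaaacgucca
hsa-miR-1306-3p: aCGUUGGCucugguggug
hsa-miR-3173-3p: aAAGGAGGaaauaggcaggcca
hsa-miR-3173-5p: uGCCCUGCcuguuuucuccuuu
The 5 seeds differ from one another. No level of a mature microRNA is given here.

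The scaling and the counts of the data were as follows. The nuclear libraries had size factors of 1.34 (deeper) and 1.19 (shallower), and the cytoplasmic ones had 0.853 (deeper) and 0.755 (shallower). Size factors are scaling factors and not read totals. The lowest read total that the paper gives for the fractionation libraries is close to their average. The 10 genes together held between 22655 and 43277 counts per library, and none of them had fewer than 537 counts in any library. The libraries of a fraction are named here by size factor, the larger as the deeper and the smaller as the shallower one. Their replicate numbers are not known from the table. The nuclear lncRNAs MALAT1 and NEAT1 stood at log2 fold changes of -3.47 and -3.09, cytoplasmic over nuclear. The 4 genes that mark other cell types were at or near 0, with mean normalized counts of 1.76 for PTPRC of leukocytes, 0.793 for ALB of hepatocytes, 0.293 for HBB of erythroid cells and 0.293 for CD3E of T cells.

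The genes split evenly between the fractions. Transcripts of TARBP2, AGO1, XPO5 and AGO2 were higher in the cytoplasm, and those of DGCR8, TNRC6A, AGO3 and DROSHA in the nucleus. DICER1 and AGO4 did not pass the threshold. A gene is named cytoplasmic or nuclear where its DESeq2 adjusted p-value, as deposited by the authors, did not exceed 0.01, and 4 genes fell on each side. Of all tested genes 52.4% passed, 25.9% as cytoplasmic and 26.5% as nuclear, so that a call as such is common in these data. Among tested protein-coding genes 63.9% passed. The median of the mean normalized counts was 154 over all tested genes and 582 over protein-coding ones, against 2994 for the 10 genes. The median log2 fold change of the 10 genes was -0.02, against -0.12 over all tested genes and 0.11 over tested protein-coding genes. Their range ran from -2.04 for DGCR8 to 1.64 for TARBP2. In an alternative (equal totals), all fold changes were moved alike so that the normalized counts of both fractions had the same total. This lowered each log2 fold change by 0.66. On that scale 1 gene was cytoplasmic and 6 were nuclear, against 16.2% and 38.3% of all tested genes. In limma, run on the counts of single libraries of 10463 genes as an alternative, the same 8 genes passed the same threshold, as did 83.0% of those genes. They passed also without the deeper or the shallower nuclear library (78.0% and 79.0% of the genes) and without the deeper or the shallower cytoplasmic library (79.4% and 79.3%).

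**Figure D1:**
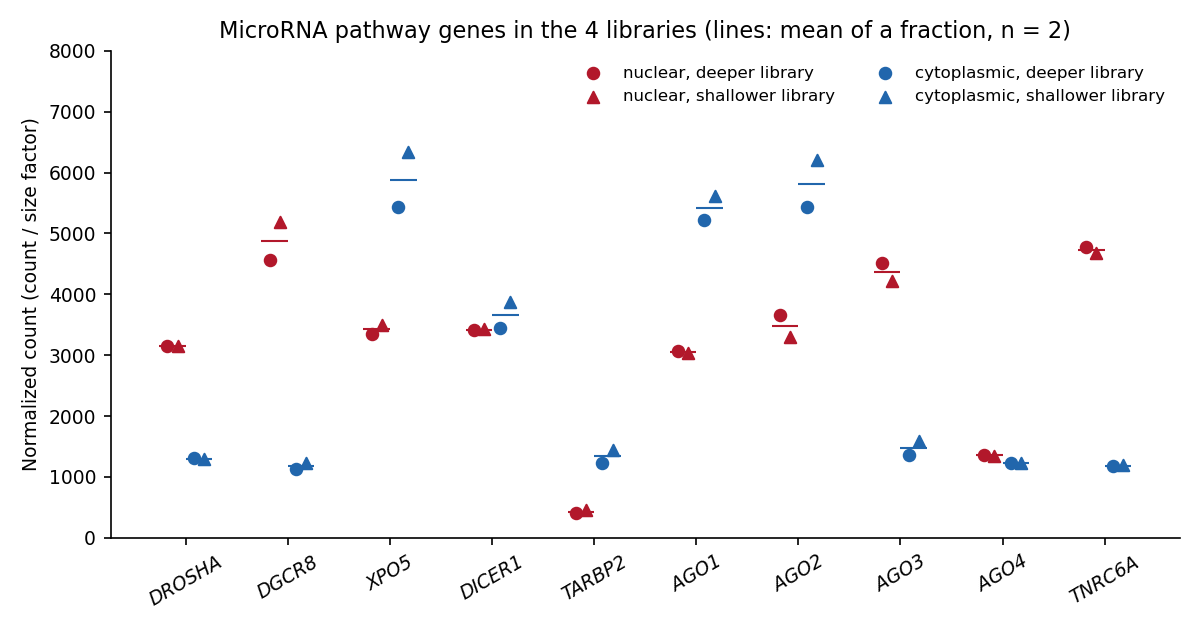
Normalized counts (count divided by the library's size factor, linear axis from 0) of the 10 genes in the 2 nuclear (red) and 2 cytoplasmic (blue) libraries, with circles for the deeper and triangles for the shallower library of each fraction and a line at each fraction's mean. The red and blue points of a gene do not overlap in height for any of the 10 genes, and those of DICER1 and AGO4 lie closest together.

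The Microprocessor genes were both higher in the nuclear fraction. DROSHA (ENSG00000113360, hg38 chr5:31400494-31532196, minus strand) had normalized counts of 3153 and 3154 in the deeper and shallower nuclear libraries and 1316 and 1289 in the deeper and shallower cytoplasmic libraries. The nuclear mean was therefore 2.42-fold the cytoplasmic mean. Its log2 fold change was -1.28 ± 0.12 (SE, n = 2 per fraction), and the authors' DESeq2 adjusted p-value was 2.42e-27. DGCR8 (ENSG00000128191, chr22:20080221-20111877, plus strand) had normalized counts of 4565 and 5190 in the nuclear libraries and 1139 and 1234 in the cytoplasmic libraries. Both nuclear values lay far above both cytoplasmic values. DGCR8 had the lowest log2 fold change of the 10 genes, -2.04 ± 0.12 (SE), with a DESeq2 adjusted p-value of 4.47e-61.

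The 2 subunits were compared within each library, where scaling between libraries cancels. The count ratio of DROSHA to DGCR8 was 0.691 and 0.608 in the nuclear libraries and 1.16 and 1.05 in the cytoplasmic libraries. It was higher in both cytoplasmic than in both nuclear libraries. The difference between their log2 fold changes was 0.76, with a 95% interval of 0.43 to 1.10 from the deposited standard errors. Counts of DGCR8, introns included, were thus shifted further to the nuclear fraction than those of DROSHA. This was 1 of 7 pairs of genes compared in this way, and the intervals are not adjusted over the 7.

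The transcript of the export receptor was higher in the cytoplasmic fraction. XPO5 (ENSG00000124571, chr6:43522334-43576038, minus strand) had normalized counts of 3348 and 3497 in the nuclear libraries and 5439 and 6331 in the cytoplasmic libraries. The log2 fold change was 0.78 ± 0.12 (SE) and the DESeq2 adjusted p-value 7.13e-11. With equal totals XPO5 stood at 0.12 with an adjusted p-value of 0.384. Of the exonic bases of XPO5, 86.2% were overlapped by other genes in GENCODE 44, mostly by POLR1C on the opposite strand. The authors removed stretches shared by genes before counting, in an earlier annotation, and how much of XPO5 this took out was not tested. The count ratio of XPO5 to DGCR8, which does not depend on scaling, was 0.733 and 0.674 in the nuclear libraries. In the cytoplasmic libraries it was 4.78 and 5.13, which placed the difference of the log2 fold changes at 2.82 (95% interval 2.49 to 3.15).

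The genes of the cytoplasmic cut differed from each other. DICER1 (ENSG00000100697, chr14:95086228-95158010, minus strand) had normalized counts of 3410 and 3428 in the nuclear libraries and 3443 and 3878 in the cytoplasmic libraries. The highest nuclear and the lowest cytoplasmic value lay close together, and the log2 fold change of 0.10 ± 0.11 (SE) did not pass the test (DESeq2 adjusted p-value 0.477). Its 95% interval ran from -0.13 to 0.32. With equal totals DICER1 stood at -0.56 with an adjusted p-value of 2.03e-06, so its side depends on the scale between fractions.

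TARBP2 (ENSG00000139546, chr12:53500921-53506431, plus strand), the partner of DICER1, was the most cytoplasmic of the 10 genes. It had normalized counts of 409 and 452 in the nuclear libraries and 1224 and 1451 in the cytoplasmic libraries. It had the fewest counts of the 10 genes and the largest standard error, and its replicates differed by up to 1.19-fold within a fraction. The log2 fold change was 1.64 ± 0.15 (SE), a 3.11-fold difference, with a DESeq2 adjusted p-value of 6.21e-26. With equal totals it was 0.97, with an adjusted p-value of 6.01e-10. The count ratio of DICER1 to TARBP2 went from 8.34 and 7.59 in the nuclear libraries to 2.81 and 2.67 in the cytoplasmic libraries. The difference between the log2 fold changes was -1.54 (95% interval -1.91 to -1.16).

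The 4 Argonaute genes covered most of the range between the fractions. AGO1, AGO3 and AGO4 lie in a row on the plus strand of chromosome 1, with 11917 nt between AGO4 and AGO1 and 185 nt between AGO1 and AGO3, and AGO2 lies on chromosome 8. AGO2 is the human Argonaute best known for cutting its targets.

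AGO1 (ENSG00000092847, chr1:35869808-35930532) had normalized counts of 3071 and 3038 in the nuclear libraries and 5217 and 5610 in the cytoplasmic libraries. Its log2 fold change was 0.83 ± 0.11 (SE) and its DESeq2 adjusted p-value 1.02e-13. AGO2 (ENSG00000123908, chr8:140520156-140635633, minus strand) had normalized counts of 3655 and 3300 in the nuclear libraries and 5435 and 6205 in the cytoplasmic libraries. Both genes were thus higher in both cytoplasmic libraries. The log2 fold change of AGO2 was 0.74 ± 0.12 (SE) and its DESeq2 adjusted p-value 9.98e-10. With equal totals neither passed the threshold, at 0.16 (adjusted p-value 0.185) for AGO1 and 0.08 (adjusted p-value 0.576) for AGO2.

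AGO3 (ENSG00000126070, chr1:35930718-36072500), the direct neighbour of AGO1, went the other way. It had normalized counts of 4518 and 4215 in the nuclear libraries and 1359 and 1598 in the cytoplasmic libraries. Its log2 fold change was -1.56 ± 0.12 (SE), a 2.95-fold higher nuclear mean, with a DESeq2 adjusted p-value of 1.73e-35. AGO4 (ENSG00000134698, chr1:35808016-35857890) had normalized counts of 1361 and 1351 in the nuclear libraries and 1236 in both cytoplasmic libraries. The fractions of AGO4 did not overlap but lay close together, and its log2 fold change of -0.13 ± 0.13 (SE) did not pass the test (DESeq2 adjusted p-value 0.371, 95% interval -0.38 to 0.11). With equal totals AGO4 passed on the nuclear side, at -0.80 with an adjusted p-value of 9.8e-10.

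Within a library the Argonaute genes can be compared without any scaling. Each gene's share of the Argonaute counts depends on its length, so a share is set only against that of the same gene in the other fraction. AGO3 held 35.8% (Wilson 95% interval 35.1 to 36.6) and 35.4% (34.6 to 36.2) of these counts in the nuclear libraries and 10.3% (9.71 to 10.8) and 10.9% (10.3 to 11.5) in the cytoplasmic libraries. AGO1 held 24.4% and 25.5% in the nuclear and 39.4% and 38.3% in the cytoplasmic libraries. AGO2 went from 29.0% and 27.7% to 41.0% and 42.4%. The share of AGO4 changed least, from 10.8% and 11.4% to 9.33% and 8.44%. The intervals cover counting error only.

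**Figure D2:**
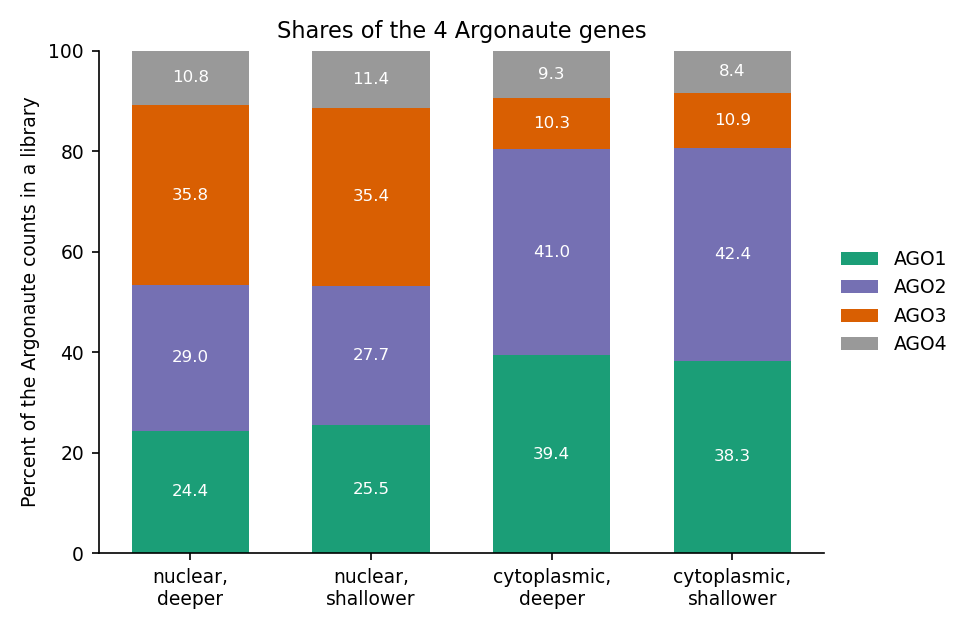
Percent of the counts on AGO1, AGO2, AGO3 and AGO4 that each gene held in each of the 4 libraries (stacked bars from 0 to 100, 1 bar per library, percent written in each segment). The AGO3 segment is 35.8 and 35.4 percent in the nuclear bars and 10.3 and 10.9 percent in the cytoplasmic bars, while the AGO1 and AGO2 segments are larger in both cytoplasmic bars.

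The ratios of Argonaute genes bore the same pattern with errors. AGO1 counts were 0.680 and 0.721 times the AGO3 counts in the nuclear libraries and 3.84 and 3.51 times in the cytoplasmic libraries, a difference of log2 fold changes of 2.39 (95% interval 2.07 to 2.71). For AGO2 over AGO3 the ratios were 0.809 and 0.783 in the nuclear and 4.0 and 3.88 in the cytoplasmic libraries, and the difference was 2.31 (1.97 to 2.64). AGO1 over AGO4 went from 2.26 and 2.25 to 4.22 and 4.54, a difference of 0.96 (0.63 to 1.29). For AGO1 over AGO2 no difference between the fractions was detectable. The ratios of 0.840 and 0.921 in the nuclear and 0.960 and 0.904 in the cytoplasmic libraries overlapped, and the difference of their log2 fold changes was 0.08 (-0.23 to 0.40).

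TNRC6A (ENSG00000090905, chr16:24610209-24827632, plus strand), the GW182 protein gene, was higher in the nuclear fraction. It had normalized counts of 4783 and 4675 in the nuclear libraries and 1175 and 1191 in the cytoplasmic libraries, with replicates within 1.02-fold of each other in both fractions. Its log2 fold change was -2.0 ± 0.11 (SE), a 4.0-fold higher nuclear mean, with a DESeq2 adjusted p-value of 9.88e-69, the lowest of the 10 genes. Of its exonic bases, 30.3% were overlapped by other genes on the opposite strand in GENCODE 44.

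All 10 genes had both values of one fraction above both of the other. The same held for 93.7% of the 10463 genes whose counts per library were obtained, so it is no mark of these genes. In the order of log2 fold change, TARBP2 came first, followed by AGO1, XPO5, AGO2, DICER1, AGO4, DROSHA, AGO3, TNRC6A and DGCR8. At 4 places the 95% interval of the difference between neighbours, from the deposited standard errors and not adjusted over the places, excluded 0. These were between TARBP2 and AGO1, AGO2 and DICER1, AGO4 and DROSHA, and AGO3 and TNRC6A. At the other places, AGO1 with XPO5, XPO5 with AGO2, DICER1 with AGO4, DROSHA with AGO3 and TNRC6A with DGCR8, it did not. In limma, with the same order, DROSHA and AGO3 also differed by this measure, at a difference of 0.29 with a standard error of 0.15, which makes 5 places.

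**Figure D3:**
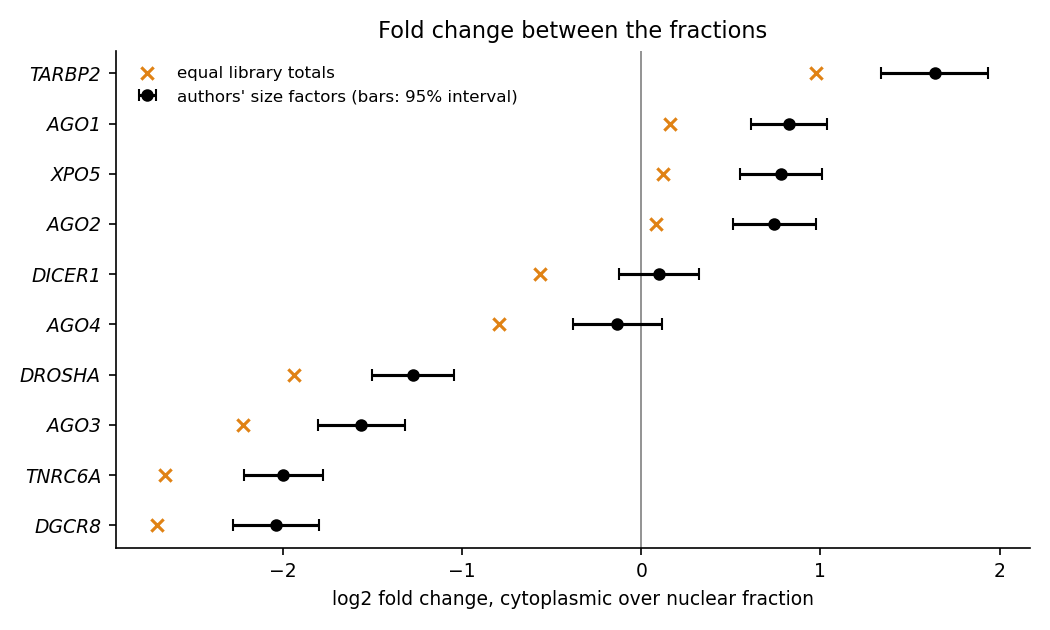
Log2 fold change, cytoplasmic over nuclear, of the 10 genes (black points with 95% intervals from the deposited standard errors) and the same value moved to equal totals of both fractions (orange crosses, lower by 0.66 throughout). The intervals of DICER1 and AGO4 span 0, and the crosses of AGO1, XPO5 and AGO2 lie between 0.08 and 0.16.

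Because introns were counted, the genes were set beside protein-coding genes of like span. The 10 genes spanned from 5.5 kb for TARBP2 to 217.4 kb for TNRC6A, and introns made up between 25.8% of the span (TARBP2) and 94.1% (DROSHA). For 12134 protein-coding genes (those whose mean exceeded 50), the median log2 fold change was 2.24 in the decile of shortest span and -2.03 in the decile of longest span. Within their own decile, 5 of the 10 genes lay above the median and 5 below. TNRC6A, in the longest decile, lay at the 50.6th percentile of it, and TARBP2, in the shortest decile, at the 28.7th percentile. These places depend on the length used. Among genes of like exonic length TNRC6A lay at the 19.5th and TARBP2 at the 81.4th percentile.

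DGCR8 and AGO2 stood farthest from genes of like span. DGCR8 spans 31.7 kb, in a decile with a median log2 fold change of 0.41, and 44 of the 1213 genes of that decile lay below it (3.63rd percentile). AGO2 spans 115.5 kb, in a decile with a median of -0.90, and 63 of the 1213 genes lay above it (94.7th percentile). AGO1 and XPO5, of 60.7 and 53.7 kb, lay at the 85.7th and 84.8th percentiles of the same decile, which had a median of -0.16. DICER1, also in that decile, lay at the 60.8th percentile. AGO4, DROSHA and AGO3 lay at the 36.9th, 34.5th and 24.7th percentiles of theirs. Of the XPO5 span, 74.6% was overlapped by other genes in GENCODE 44. The authors removed shared stretches before counting, in an earlier annotation. How much of XPO5 was counted was not tested, so its place among genes of like span is uncertain. Among genes of like exonic length, DGCR8 lay at the 9.72nd percentile and AGO2 at the 91.1st, below AGO1 at the 92.6th. These percentiles are descriptions and no test. Spearman's rho between span and log2 fold change over the 10 genes was -0.42, and -0.20 without TARBP2. With exonic length it was -0.02.

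**Figure D4:**
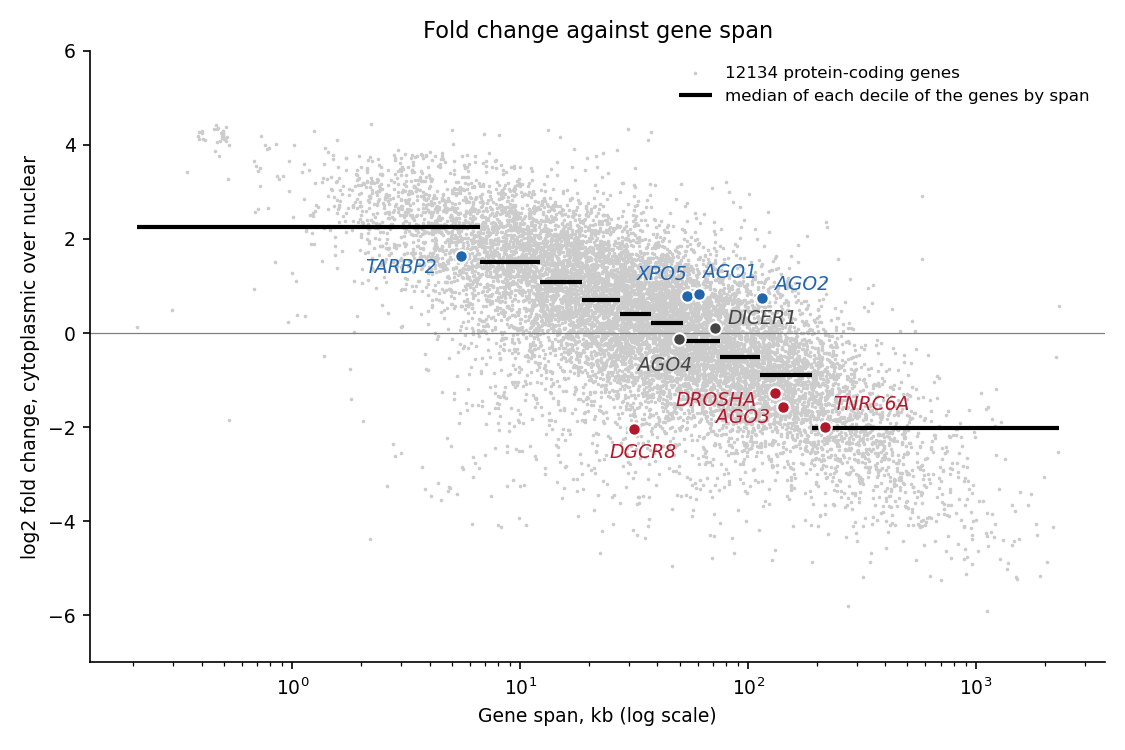
Log2 fold change, cytoplasmic over nuclear, against gene span in kb (log scale) for 12134 protein-coding genes (grey), with black bars at the median of each decile of the genes by span and the 10 genes in colour (blue called cytoplasmic, red called nuclear, dark grey not called). DGCR8 lies well below and AGO2 well above the bar of its decile, while TNRC6A lies on it.

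Different genes were compared only per kb of length, exonic length first. The counts hold intronic reads too, so a value per exonic kb is not the level of a spliced transcript. The paper states that the exonic length makes a gene with many intronic reads seem more highly expressed than it was. In the nuclear fraction DGCR8 had the highest value, 666 normalized counts per exonic kb, and TARBP2 the lowest, 105. In the cytoplasmic fraction XPO5 had the highest value, 694, and AGO3 the lowest, 69.9. The Argonaute genes lay close together on this scale in the nuclear fraction, at 218 for AGO1, 219 for AGO2, 206 for AGO3 and 183 for AGO4. In the cytoplasmic fraction they lay farther apart, at 385, 367, 69.9 and 167. Per kb of total span the order of the 10 genes differed, with TARBP2 highest at 243 and TNRC6A lowest at 5.44 in the cytoplasmic fraction. In the nuclear fraction the Argonaute genes then stood at 50.3 for AGO1, 30.1 for AGO2, 30.8 for AGO3 and 27.2 for AGO4. These values therefore depend on the length used. Stretches removed by the authors were not taken off either length. When exonic bases that other genes overlap in GENCODE 44 were taken off, 1.17 kb of XPO5 remained. With lengths so reduced XPO5 was highest in both fractions, at 2933 (nuclear) and 5043 (cytoplasmic) normalized counts per kb. Intronic reads were still in these counts. DGCR8 was thus the highest nuclear gene per kb of full exonic length and also per kb of total span, at 154. With the reduced exonic length it was not.

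The rest of the pathway was read from 54 listed genes in 4 groups, of which 52 were tested. By the same call, 19 were cytoplasmic and 20 nuclear, 75.0% in all against 52.4% of all tested genes and 63.9% of protein-coding genes. Their median log2 fold change was -0.00. The lowest mean normalized count among the 52 was 258 (METTL1), while the median was 154 over all tested genes and 582 over protein-coding ones. The share called among genes of like mean was not computed, so the 75.0% is not read as an excess. The nuclear count was 10 with Bonferroni adjustment (17.1% of all tested genes) and 13 where an absolute log2 fold change over 0.5 and a mean over 50 were also asked for (21.0% of all tested genes). By that last rule 17 were cytoplasmic (23.0% of all tested genes). With equal totals 12 were cytoplasmic and 33 nuclear, against 16.2% and 38.3% of all tested genes.

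**Figure D5:**
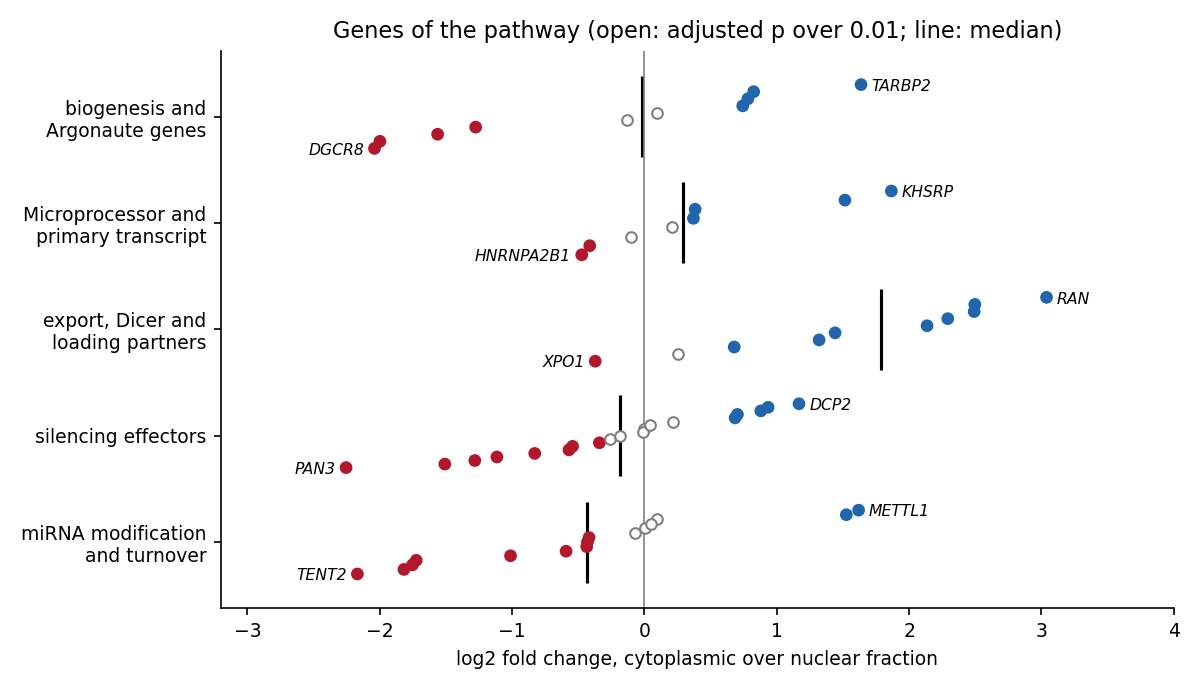
Log2 fold change, cytoplasmic over nuclear, of the 10 biogenesis and Argonaute genes and of 52 other genes of the pathway in 4 groups (1 point per gene; filled blue or red where the adjusted p-value was at most 0.01, open otherwise; black line at the group's median). The export, Dicer and loading partners lie mostly on the cytoplasmic side with a median of 1.79, and the silencing effectors and the modification and turnover genes have medians below 0.

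Among partners of export, Dicer and Argonaute loading, 8 of 10 were cytoplasmic and 1 was nuclear, against 25.9% and 26.5% of all tested genes. The median of the group was 1.79. RAN, the small GTPase that Exportin-5 needs for its cargo, stood at 3.04 ± 0.12 (SE). Its normalized counts were 2588 and 3166 in the nuclear libraries and 22603 and 24673 in the cytoplasmic libraries. The chaperone HSPA8 and the co-chaperone FKBP4, which serve the loading of Argonaute, stood at 2.50 and 2.49. RAN, HSPA8 and FKBP4 span 5.6, 5.7 and 10.5 kb. In the 2 shortest deciles of span, 90.0% and 76.8% of protein-coding genes were cytoplasmic. XPO1, the export receptor of many proteins and of some RNAs, was the nuclear gene of the group, at -0.37 ± 0.10 (SE). XPO5 at 0.78 and XPO1 therefore lay on opposite sides, and with equal totals XPO1 was at -1.03 and XPO5 at 0.12.

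Of 8 tested cofactors of the Microprocessor and of primary transcripts, 4 were cytoplasmic and 2 nuclear, against 25.9% and 26.5% of all tested genes. Their median was 0.29. KHSRP, which binds the terminal loop of some precursors, stood at 1.87 ± 0.11 (SE), with normalized counts of 3061 and 3405 in the nuclear and 11776 and 11790 in the cytoplasmic libraries. NCBP2 of the nuclear cap-binding complex and SRRT, which bridges that complex to the Microprocessor, stood at 1.52 and 0.38. HNRNPA2B1 at -0.47 and the helicase DDX17 at -0.41 were the nuclear genes. With an absolute log2 fold change over 0.5 asked for, 2 were cytoplasmic, KHSRP and NCBP2, and 0 nuclear. Over all tested genes that rule gave 23.0% and 21.0%. With equal totals 2 were cytoplasmic and 4 nuclear, against 16.2% and 38.3% of all tested genes. SRRT was then at -0.28 with an adjusted p-value of 0.0473.

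Of 19 silencing effectors, 5 were cytoplasmic and 8 nuclear, against 25.9% and 26.5% of all tested genes, with a median of -0.19. Both paralogs of TNRC6A were on its side, TNRC6C at -1.28 ± 0.12 (SE) and TNRC6B at -1.12 ± 0.11 (SE). TNRC6B had normalized counts of 6430 and 6199 in the nuclear and 3068 and 2760 in the cytoplasmic libraries, and TNRC6C had 2822 and 2588 in the nuclear and 1072 and 1154 in the cytoplasmic libraries. All 3 paralogs were thus higher in both nuclear libraries, and TNRC6B spans 291.0 kb and TNRC6C 150.1 kb. Of protein-coding genes in the span decile of TNRC6A and TNRC6B 91.5% were nuclear, and in that of TNRC6C 68.8%. The median log2 fold changes of these deciles were -2.03 and -0.90. PAN3, of the PAN2-PAN3 deadenylase, and GIGYF2, a repressor of translation, stood at -2.26 and -1.51. DCP2, the decapping enzyme, CNOT1, the scaffold of the CCR4-NOT deadenylase, and the helicase DDX6 were higher in the cytoplasmic fraction, at 1.17, 0.93 and 0.88. With equal totals 1 of the 19, DCP2 at 0.51, remained cytoplasmic, and 14 were nuclear, against 16.2% and 38.3% of all tested genes.

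Of 15 tested genes of microRNA modification and turnover, 2 were cytoplasmic and 9 nuclear, against 25.9% and 26.5% of all tested genes, with a median of -0.43. With equal totals 2 were cytoplasmic and 13 nuclear, against 16.2% and 38.3%, with a median of -1.09. With an absolute log2 fold change over 0.5 asked for, 6 of the 9 nuclear genes stayed (21.0% of all tested genes were nuclear by that rule). The nuclear genes included those for enzymes that add or remove 3′ nucleotides. TENT2, a terminal nucleotidyltransferase, stood at -2.17 ± 0.12 (SE), with normalized counts of 3477 and 3502 in the nuclear and 739 and 814 in the cytoplasmic libraries. DIS3L2, an exonuclease of uridylated RNA, and TUT4, a terminal uridylyltransferase, stood at -1.82 and -1.75. TENT2, TUT4 and DIS3L2 span 76.1, 145.2 and 383.1 kb. In their span deciles 52.6%, 68.8% and 91.5% of protein-coding genes were nuclear. The median log2 fold changes of these deciles were -0.50, -0.90 and -2.03. METTL1, a guanosine methyltransferase, and ADAR, which deaminates adenosine in double-stranded RNA, were higher in the cytoplasmic fraction, at 1.62 and 1.53. They span 3.6 and 46.3 kb, in deciles where 90.0% and 40.6% of protein-coding genes were cytoplasmic.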

How the data were processed

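Reads were aligned by the authors to hg38 with STAR and counted per gene with featureCounts 2.0.2 over exons and introns, after stretches shared by genes had been taken out of an annotation derived from GENCODE. The strand setting of the counting was not given in the sources used here. The deposited table holds a signal (the mean normalized count that the authors averaged over the 4 libraries), the authors' DESeq2 log2 fold change, cytoplasm over nucleus, with its standard error on the log2 scale, the authors' Wald score, and 2 columns of deposited p-values, raw and Benjamini-Hochberg adjusted. These columns of the authors' own comparison were used as deposited in place of the intended count test.

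Counts of single libraries were obtained from the same columns. Low means are whole multiples of 4 steps, 1 per library. Whole counts were sought that gave a gene's mean, fold change and standard error at once under the DESeq2 model that the authors used. Each of the 10 genes had 1 solution, within 2.17e-09 (log2) of the deposited fold change, and the closest other solution was off by at least 1.09e-07. Of 10460 tested genes with means from 200 to 5000, 10451 (99.9%) had a single solution. A repeat pass on genes without a solution gave 1391 of the single solutions. It used a wider search and a wider tolerance (3e-07 for lower and 1e-07 for higher means). The procedure was tested on simulated data.

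Intervals are the estimate ± 1.96 standard errors. As alternatives, limma 3.58.1 (R 4.3.3, trend, log2 of normalized count + 0.5) was run on these counts, and fold changes were moved so that the normalized counts of both fractions had equal totals, or to the protein-coding median, with p-values recomputed from the authors' deposited DESeq2 standard errors and adjusted over all 23333 tested genes.

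Lengths and overlaps came from GENCODE 44 on hg38. The members and lists were chosen with earlier results of these data known. Named were the 10 members and, in each pathway group, up to 3 called genes per direction with the largest fold changes and a mean over 50, plus TNRC6B and TNRC6C. Of the 54 listed genes, HNRNPA1 was not analysed here and LIN28A had a mean of 0.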

Additional observations from a re-analysis of the deposited data

How the results depend on the processing

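No paired analysis was possible because the counts obtained for single libraries carry no replicate number, so nuclear and cytoplasmic libraries could not be matched. The scale between fractions mattered most. With equal totals, 1 of the 10 genes (TARBP2) was cytoplasmic and 6 were nuclear, the median of the 10 was -0.68, and DICER1 changed side to -0.56. XPO5 (0.12), AGO1 (0.16) and AGO2 (0.08) kept their side without passing the threshold, and AGO4 (-0.80) passed it. On this scale 12 of the other pathway genes were cytoplasmic and 33 nuclear, against 16.2% and 38.3% of all tested genes. Equal totals lower every fold change, so nuclear calls are not tested by it. Over the 10463 genes with counts per library, normalized totals were 13395553 and 13022619 in the nuclear and 13543635 and 14049557 in the cytoplasmic libraries. These genes held 57.7% of all normalized counts, so the shift came mostly from genes outside them. Bonferroni adjustment, added after the data were seen, left 10 nuclear pathway genes, and an absolute log2 fold change over 0.5 left 13. Over the 10 genes and 7 alternatives, 64 of 70 values kept their sign and their side of the threshold. With the protein-coding median set to 0, DICER1, which passed in neither case, changed sign to -0.014. In limma without replicate after replicate, each call of the 10 genes was kept and the median of the 10 lay between -0.062 and 0.024. With 1 library left in a fraction, its spread is assumed to equal that of the other. limma, added after the data were seen, gave the same order of the 10 genes on all 4 libraries. The ratio of the highest to the lowest cytoplasmic level per kb was 9.93 with exonic length, 44.6 with total span and 70.0 with exonic length free of other genes, a length chosen after the data were seen. TARBP2 had the lowest mean of the 10 genes and the largest standard error, 0.15.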
